A study of Mus musculus with 6 samples.

Results

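The Hox genes encode homeodomain transcription factors and lie in 4 clusters, HoxA on mouse chromosome 6, HoxB on chromosome 11, HoxC on chromosome 15 and HoxD on chromosome 2. The members described here are all probe sets on the array whose annotated gene symbol is Hoxa, Hoxb, Hoxc or Hoxd followed by a number from 1 to 13. The rule found 48 of the 45101 probe sets, for 33 of the 39 Hox genes that RefSeq lists, with 16 probe sets in HoxA, 11 in HoxB, 11 in HoxC and 10 in HoxD. The other 6 had no probe set of their own symbol and were not analysed here. A number in the name is the paralog group: members of 1 group in different clusters descend from 1 ancestral gene and lie at the same place in their clusters.

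The arrays compared 3 samples taken at day 4 with 3 taken at day 3, while mouse ES (embryonic stem) cells in a monolayer became paraxial mesoderm, the tissue that forms the somites. All 6 samples came from the E14 line (129P2/OlaHsd background) carrying Msgn1RepV, a Venus reporter of the presomitic mesoderm gene Msgn1, and only Venus-positive cells were profiled on both days. Both groups were grown in serum with 0.5% DMSO, 10 ng/mL R-spondin3, which potentiates Wnt signalling, and 200 ng/mL Noggin, which blocks BMP. Undifferentiated and Venus-negative cells were not analysed here, and the labels call the replicates biological without saying what separated them, so p-values measure the spread between these samples.

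Hox genes are known to be switched on in the order in which they lie along a cluster, from group 1 at the 3′ end toward group 13 at the 5′ end, as the embryo extends backwards. In the primitive streak and presomitic mesoderm this sequence gives cells their position along the head-to-tail axis, and the set of Hox genes that a somite keeps decides which kind of vertebra it forms. Retinoic acid and Wnt signals and the caudal factors of the Cdx family are known inputs, and proteins of the Meis and Pbx families bind DNA together with Hox proteins.

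Promoters are shown for the called members that the RefSeq promoter table holds, Hoxa9, Hoxd8 and Hoxd9, and for Hoxb1, the Hox probe set with the highest signal. Each is the 250 bases before the annotated start, build GRCm38.p6, 5′ to 3′ on the gene's own strand. Capitals mark matches on either strand to 5 motifs: the Cdx site TTTATG, the Meis site TGACAG, the joint Pbx-Hox site TGATNGAT, CCAAT, and TATAAA.
Hoxb1, chr11:96365508-96365757, plus strand: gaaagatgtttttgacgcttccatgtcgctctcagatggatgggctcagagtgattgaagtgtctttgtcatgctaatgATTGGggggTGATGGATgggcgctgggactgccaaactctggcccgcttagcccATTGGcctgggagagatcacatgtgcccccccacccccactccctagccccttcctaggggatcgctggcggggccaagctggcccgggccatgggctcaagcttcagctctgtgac
Hoxd8, chr2:74704365-74704614, plus strand: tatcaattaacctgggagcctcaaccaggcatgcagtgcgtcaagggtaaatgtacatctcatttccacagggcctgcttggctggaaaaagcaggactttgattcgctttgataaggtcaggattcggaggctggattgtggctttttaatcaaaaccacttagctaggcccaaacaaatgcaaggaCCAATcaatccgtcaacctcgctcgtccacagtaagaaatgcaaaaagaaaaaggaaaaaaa
Hoxd9, chr2:74697513-74697762, plus strand: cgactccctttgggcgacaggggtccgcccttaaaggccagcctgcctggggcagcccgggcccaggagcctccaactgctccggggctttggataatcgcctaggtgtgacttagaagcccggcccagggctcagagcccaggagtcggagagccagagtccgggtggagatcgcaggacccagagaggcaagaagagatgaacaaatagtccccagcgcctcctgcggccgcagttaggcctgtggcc
Hoxa9, chr6:52227371-52227620, minus strand: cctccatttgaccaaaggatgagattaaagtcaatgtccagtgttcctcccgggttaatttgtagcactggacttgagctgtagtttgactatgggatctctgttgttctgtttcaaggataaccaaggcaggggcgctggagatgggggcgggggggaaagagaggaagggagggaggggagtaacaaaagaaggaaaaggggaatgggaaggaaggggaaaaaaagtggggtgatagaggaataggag
The Hoxb1 window holds 1 Pbx-Hox match, in capitals as TGATGGAT and starting 162 bases before the start, and 2 CCAAT matches on the other strand. Pbx-Hox sites of this kind are known from the element through which Hoxb1 maintains its own expression in the hindbrain. The Hoxd8 window holds 1 CCAAT match, 62 bases before the start, and the windows of Hoxd9 and Hoxa9 hold no match to these letters. Over the 24 windows of 22 Hox genes in the table, 3 held the Pbx-Hox site, 5 the Cdx site, 2 the Meis site, 14 CCAAT and 4 TATAAA. Of all 32851 promoter windows in the table, 1.82% held the Pbx-Hox site, 10.8% the Cdx site, 15.9% the Meis site, 33.8% CCAAT and 12.4% TATAAA. These matches describe the letters only.

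Hox genes that passed the test were all higher at day 4. Of the 48 probe sets, 29 (of 22 genes) lay above the filter on dim probe sets, a geometric mean signal of 13.45 over the 6 arrays, and were tested. Of these, 7 probe sets of 6 genes were higher at day 4 and 0 were lower (limma, adjusted p under 0.05), and at an unadjusted p under 0.05 the counts were 9 and 0, where 17.9% of all probe sets tested were higher and 14.5% lower. The genes were Hoxb2 and Hoxb3 of the anterior groups, and Hoxc8, Hoxd8, Hoxa9 and Hoxd9 of the middle groups, with 1.51-fold to 2.95-fold higher signals. Among all 27026 probe sets tested, 9.96% were called higher, 7.78% lower and 17.7% in either direction, beside 24.1% and none of the Hox probe sets. The median log2 change was 0.18 over the 29 Hox probe sets and 0.02 over all probe sets tested. With 1 array left out, that Hox median ran from 0.14 (without day 3 replicate 1) to 0.46 (without day 4 replicate 1). It was 0.36 without day 3 replicate 2. Since the arrays measure pooled RNA, more cells with a transcript and more transcript per cell cannot be told apart.

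Most Hox probe sets were dim. Only 19 of the 48 had a mean signal above that of the median probe set, 23.97, and the 19 under the filter had mean signals of 1.47 to 11.1. Of the 11 tested Hox probe sets above the 60th percentile of signal, 6 were called higher, where 13% of all probe sets at that brightness were. Of the 18 below it, 1 was called, Hoxc8, where 3.93% of all were. Signals of different probe sets depend on their probes as well as on the RNA, so they place a probe set above or below the filter and do not rank the genes by expression.

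**Figure D1:**
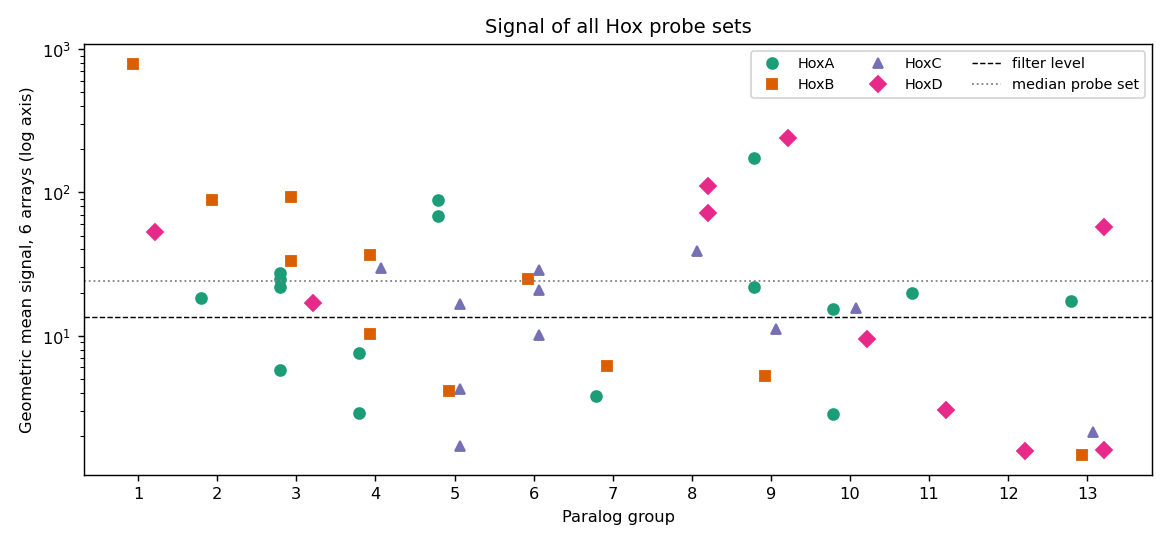
Geometric mean signal over the 6 arrays (log axis) of all 48 Hox probe sets against their paralog group, coloured by cluster. The dashed line is the filter at 13.45 and the dotted line the median probe set at 23.97. Hoxb1 stands highest, and most probe sets of groups 10 to 13 lie near or under the filter.

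One day 4 array stood apart in the 3′ to 5′ ratios of its control probes. The Gapdh control probes gave a 3′ to 5′ signal ratio of 14.04 on day 4 replicate 1, while the remaining 5 arrays gave 2.43 to 3.19. The same ratio for Actb was 6.71, while the remaining arrays gave 2.77 to 3.84. Without it, all 7 calls were kept and Hoxa5 was added, so 8 Hox probe sets were higher and 0 lower, with 12.6% of all probe sets called higher, 10.7% lower and 23.3% in either direction. Trimmed mean signals of the arrays spanned 160.4 to 162.1, and pairs of arrays had a Pearson correlation in log2 signal of 0.933 to 0.948 within day 4, 0.941 to 0.946 within day 3 and 0.924 to 0.939 between days. Msgn1 itself averaged 33.2 ± 7.06 at day 4 and 74.5 ± 15.0 at day 3 (values after ± beside a mean are SDs over 3 arrays), and Tbx6, another factor of this tissue, averaged 124 ± 29.5 and 132 ± 6.99.

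HoxB held the largest fitted rise among the Hox genes tested. Hoxb3, a group 3 gene of hindbrain and anterior somites, had signals of 158.2, 167.0 and 150.5 at day 4, against 42.5, 65.4 and 55.6 at day 3 on its brighter probe set (1456229_at). All day 4 arrays lay above all day 3 arrays, and the log2 change was 1.56 ± 0.18 (values after ± beside a change are SEs, limma adjusted p = 0.000697). The other Hoxb3 probe set (1427605_at) had 30.0, 55.2 and 34.9 at day 4, against 25.3, 30.1 and 29.3 at day 3. Its days overlapped and its change of 0.46 ± 0.27 did not pass (limma adjusted p = 0.276), and was 0.20 without day 4 replicate 2.

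Hoxb2, which patterns the hindbrain and facial motor neurons, had signals of 123.8, 137.2 and 142.1 at day 4, against 48.5, 61.4 and 64.4 at day 3. The days did not overlap, and the change was 1.22 ± 0.16 (limma adjusted p = 0.00141). Both Hoxb2 and Hoxb3 kept their calls under all 18 alternatives run. Changes were 1.09 to 1.30 for Hoxb2 and 1.39 to 1.70 for the brighter Hoxb3 probe set, and 1.01 for the mean of both Hoxb3 probe sets.

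Hoxb1, an early gene of the primitive streak and of hindbrain identity, was bright on both days and did not pass. Its signals were 804.2, 897.8 and 825.3 at day 4, against 641.9, 834.1 and 775.5 at day 3. The days overlapped, and the change of 0.17 had a 95% interval of -0.08 to 0.425 (limma adjusted p = 0.319). A change as large as that of Hoxb2 lay outside this interval.

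The other tested HoxB members had changes above 0 that did not pass. Hoxb4, known for its action in blood stem cells, had signals of 49.3, 47.6 and 52.6 at day 4, against 15.2, 41.4 and 29.3 at day 3 (change 0.91 ± 0.34, limma adjusted p = 0.095). Its day 4 signals were close together and above all 3 day 3 signals, which spread widely. It passed without day 3 replicate 2 (adjusted p = 0.0446, and up to 0.192 without another array), and its other probe set lay under the filter. Hoxb6, a gene of the trunk, had 28.3, 34.7 and 32.5 at day 4, against 24.1, 21.5 and 14.6 at day 3 (change 0.69 ± 0.28, limma adjusted p = 0.127). Its days did not overlap either, and it passed with array weights (adjusted p = 0.0317). In all, changes were above 0 for the 6 tested HoxB probe sets, with 2 called and a median of 0.80. Of all probe sets tested, 9.96% were called higher. Probe sets of Hoxb5, Hoxb7, Hoxb9 and Hoxb13 were all under the filter.

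**Figure D2:**
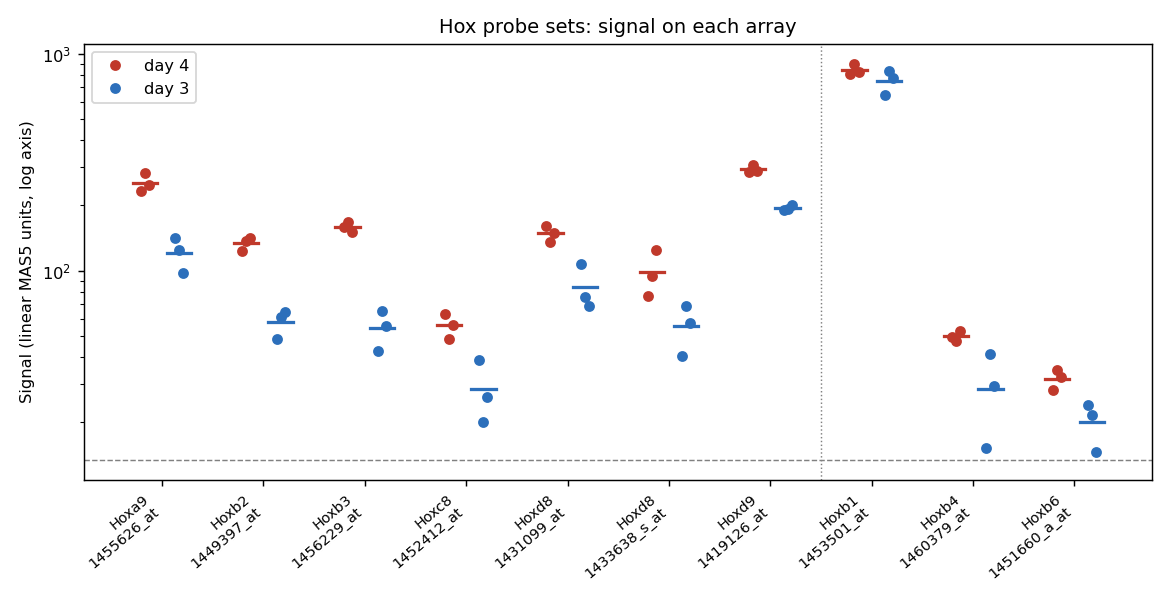
Signal on each array (linear MAS5 units on a log axis) of the 7 Hox probe sets called higher at day 4, left of the dotted line, and of Hoxb1, Hoxb4 and Hoxb6, which were not called. Points are arrays, bars are means, and the dashed line is the filter at 13.45. In each of the 7 all day 4 arrays lie above all day 3 arrays, while those of Hoxb1 overlap.

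In HoxD, Hoxd8 and Hoxd9 rose and no other Hox gene of the cluster passed. Called higher were 3 of 6 tested probe sets, beside 9.96% of all probe sets tested. Hoxd9, a gene of the lower trunk and limb, had signals of 284.6, 307.3 and 287.2 at day 4, against 190.2, 192.0 and 201.1 at day 3. Replicates were close and the days far apart relative to them, a change of 0.59 ± 0.11 (limma adjusted p = 0.00571), and the call held under all 18 alternatives. Hoxd8, a trunk gene, was measured by 2 probe sets with similar changes between the days. The first (1431099_at) had 160.8, 136.2 and 149.8 at day 4, against 107.5, 75.4 and 68.9 at day 3 (change 0.85 ± 0.18, limma adjusted p = 0.0131). The second (1433638_s_at) had 76.6, 94.5 and 124.1 at day 4, against 40.6, 68.6 and 57.2 at day 3 (change 0.83 ± 0.24, limma adjusted p = 0.0423). On both, every day 4 array was above every day 3 array. Within the days they differed, as replicate 1 was the highest of each day on the first and the lowest on the second. Without day 3 replicate 3 neither Hoxd8 probe set passed (adjusted p = 0.06 and 0.105), and 1 of the 2 failed without each array but day 4 replicate 1. The first failed with day 3 replicate 2 left out (0.0539), and the second with day 3 replicate 1 (0.129), day 4 replicate 2 (0.0942) or day 4 replicate 3 (0.128) left out. The second also failed with no filter (0.0714) and without a mean-variance trend (0.0896).

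At the ends of HoxD nothing passed. Hoxd1, of the most anterior group, averaged 54.0 ± 9.12 at day 4 and 53.0 ± 6.50 at day 3, with an interval for the log2 change of -0.42 to 0.46. Hoxd3 averaged 19.0 ± 7.19 and 16.5 ± 5.38. Hoxd13, which shapes the digits, averaged 53.4 ± 13.1 at day 4 and 64.1 ± 17.4 at day 3 on the probe set above the filter, while its other probe set had signals of 1.32 to 2.56 over the 6 arrays. Hoxd10, Hoxd11 and Hoxd12 were under the filter.

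In HoxC, Hoxc8 alone passed, 1 of 6 tested probe sets, where 9.96% of all probe sets tested were called higher. Hoxc8, a gene of the thoracic vertebrae, had signals of 63.3, 48.3 and 56.3 at day 4, against 39.0, 20.1 and 26.3 at day 3 (change 1.02 ± 0.27, limma adjusted p = 0.0294). The days did not overlap, but the call was lost when 1 of 4 arrays was left out. The adjusted p was 0.0868 and 0.0944 when replicate 2 or 3 of day 3 was missing, and 0.053 and 0.0745 when replicate 2 or 3 of day 4 was. It was also lost with no filter (0.0597) and without a mean-variance trend (0.054). Hoxc4, the most anterior HoxC gene, averaged 40.2 ± 0.46 at day 4 and 24.2 ± 11.6 at day 3 (change 0.88 ± 0.39, limma adjusted p = 0.156). Hoxc5, Hoxc6 and Hoxc10 did not pass, with changes of -0.43 to 0.50 on their tested probe sets. Hoxc9 and Hoxc13 were under the filter. Hoxc9 was uneven there, with 30.0, 23.0 and 6.34 at day 4, against 6.98, 5.497 and 11.1 at day 3.

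In HoxA, 1 of 11 tested probe sets was called, where 9.96% of all probe sets tested were called higher. It was a probe set of Hoxa9, and its partner did not agree in direction. Hoxa9, a gene of the lower trunk and of myeloid leukaemia, had signals of 233.0, 281.1 and 249.4 at day 4, against 140.8, 124.3 and 97.4 at day 3 on the brighter probe set (1455626_at). The days did not overlap, and the change was 1.09 ± 0.16 (limma adjusted p = 0.00235). The dimmer probe set (1421579_at) had 6.10, 29.3 and 25.0 at day 4, against 28.9, 28.1 and 30.9 at day 3 (change -0.83 ± 0.54, limma adjusted p = 0.325). Its low value came from day 4 replicate 1, and without that array the change was -0.11. The mean of both probe sets changed by 0.13 (adjusted p = 0.813), so the Hoxa9 call rests on 1 of its 2 probe sets.

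The rest of HoxA did not pass. Hoxa2, which patterns the second pharyngeal arch, averaged 22.3 ± 6.34 at day 4 and 16.3 ± 5.77 at day 3. Hoxa3, a gene of the thymus and neck, had 3 tested probe sets with changes of 0.11, 0.16 and -0.65, and only the last had day 4 signals (23.4, 12.3 and 18.8) all below those of day 3 (29.2, 28.2 and 25.6). It was the 1 Hox probe set called lower under any alternative, with array weights (adjusted p = 0.0441). Hoxa5, which acts in lung and in the neck-to-thorax transition, averaged 77.0 ± 20.1 at day 4 and 61.8 ± 4.23 at day 3 on its dimmer probe set, which passed without day 4 replicate 1 (change 0.52, adjusted p = 0.0385). Its other probe set averaged 85.6 ± 13.3 at day 4 and 91.6 ± 14.6 at day 3. Hoxa10, Hoxa11 and Hoxa13 of the posterior groups had changes of -0.22, -0.24 and -0.39, none past the test, and the probe sets of Hoxa4 and Hoxa7 were under the filter.

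**Figure D3:**
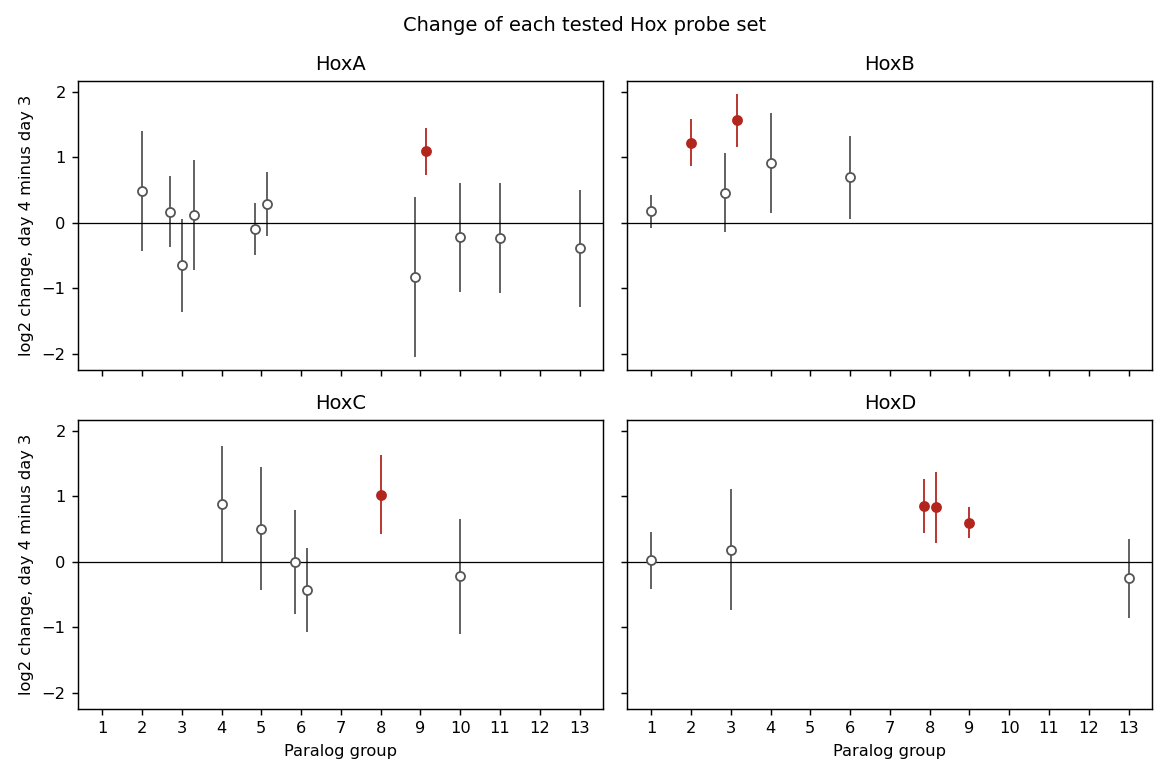
Log2 change, day 4 minus day 3, of each tested Hox probe set (vertical axis) against paralog group, 1 panel per cluster, with 95% intervals from the limma fit. Filled red points passed the test. The 7 called probe sets belong to groups 2, 3, 8 and 9, and the 5 tested probe sets of groups 10 to 13 all lie below 0 with intervals that span 0.

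By paralog group, the called members belonged to groups 2, 3, 8 and 9. Of groups 1 to 4, 12 of 16 probe sets were tested, 2 were called higher and the median change was 0.32. Of groups 5 to 9, 12 of 20 were tested, 5 were called higher and the median was 0.55. Of groups 10 to 13, 5 of 12 were tested, none was called (limma, and none at an unadjusted p under 0.05), and the 5 changes ran from -0.39 to -0.22. Among all probe sets tested, 9.96% were called higher, and 3.93% of those at or under the 60th percentile of signal. Hoxa10, Hoxc10, Hoxa13 and Hoxa11 were tested at mean signals of 15.5 to 19.9, close to the filter. The untested probe sets of groups 10 to 13 changed in both directions. All 3 probe sets of group 8 above the filter were called, in HoxC and HoxD, and the 2 tested genes of group 9, Hoxa9 and Hoxd9, were each called on 1 probe set. In group 2 Hoxb2 was called and Hoxa2 was not, and in group 3 Hoxb3 was called and Hoxa3 and Hoxd3 were not. Differences between groups or clusters were not tested, since members of a cluster share the same arrays and are not replicates. Across the 29 tested probe sets, the change had a Pearson correlation of -0.29 with the group number and 0.41 with the mean log2 signal, given as a description.

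Counted by separation of the arrays, 10 of the 29 tested Hox probe sets had all day 4 signals above all day 3 signals and 1 had them all below. Among all probe sets tested, 20.8% were separated upward and 17.6% downward, beside 34.5% of the Hox probe sets separated upward. The 10 were the 7 called probe sets and those of Hoxb4, Hoxb6 and Hoxc4.

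Noncoding genes inside HoxB and HoxD were also higher at day 4. Hoxb5os, a long noncoding RNA whose RefSeq extent overlaps Hoxb5 and Hoxb6, had signals of 184.4, 120.5 and 155.1 at day 4, against 31.1, 32.6 and 21.3 at day 3. This change of 2.44 ± 0.23 (limma adjusted p = 0.000262) exceeded every fitted change of the tested Hox members. Hoxd3os1, a long noncoding RNA that overlaps Hoxd3 and comes next to Hoxd8 among the genes tested, had 107.6, 99.0 and 91.8 at day 4, against 24.2, 27.6 and 42.3 at day 3 on its brighter probe set (change 1.70 ± 0.23, limma adjusted p = 0.00151). Its other probe set was under the filter. The strand each probe set reads is not given in the sources used here, so signal of overlapping genes is uncertain, including that of Hoxb3, whose extent covers Hoxb4. The extents of Hoxb2 and Hoxb3 also overlap that of Hoxb3os, for which no probe set was used, so the same limit holds for Hoxb2.

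Of the genes beside the clusters, Evx1, a homeobox gene past the 5′ end of HoxA, had signals of 654.1, 462.0 and 464.2 at day 4, against 770.1, 678.3 and 754.3 at day 3. It fell by 0.50 ± 0.14 on the log2 scale (limma adjusted p = 0.0399). Evx2, beside HoxD, did not pass (change -0.32 ± 0.36). The list of 13 neighbours had 10 tested members, with 3 higher and 2 lower in the main fit. That fit called 9.96% of all probe sets higher and 7.78% lower. A separate fit of the brightest probe set of each gene called 11.5% of all genes higher and 10.7% lower. Skap2, a signalling adaptor near HoxA, was the third to rise (0.37 ± 0.09) and Snx10, a sorting nexin, the other to fall (-0.49 ± 0.14), with limma adjusted p = 0.0225 and 0.0381.

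**Figure D4:**
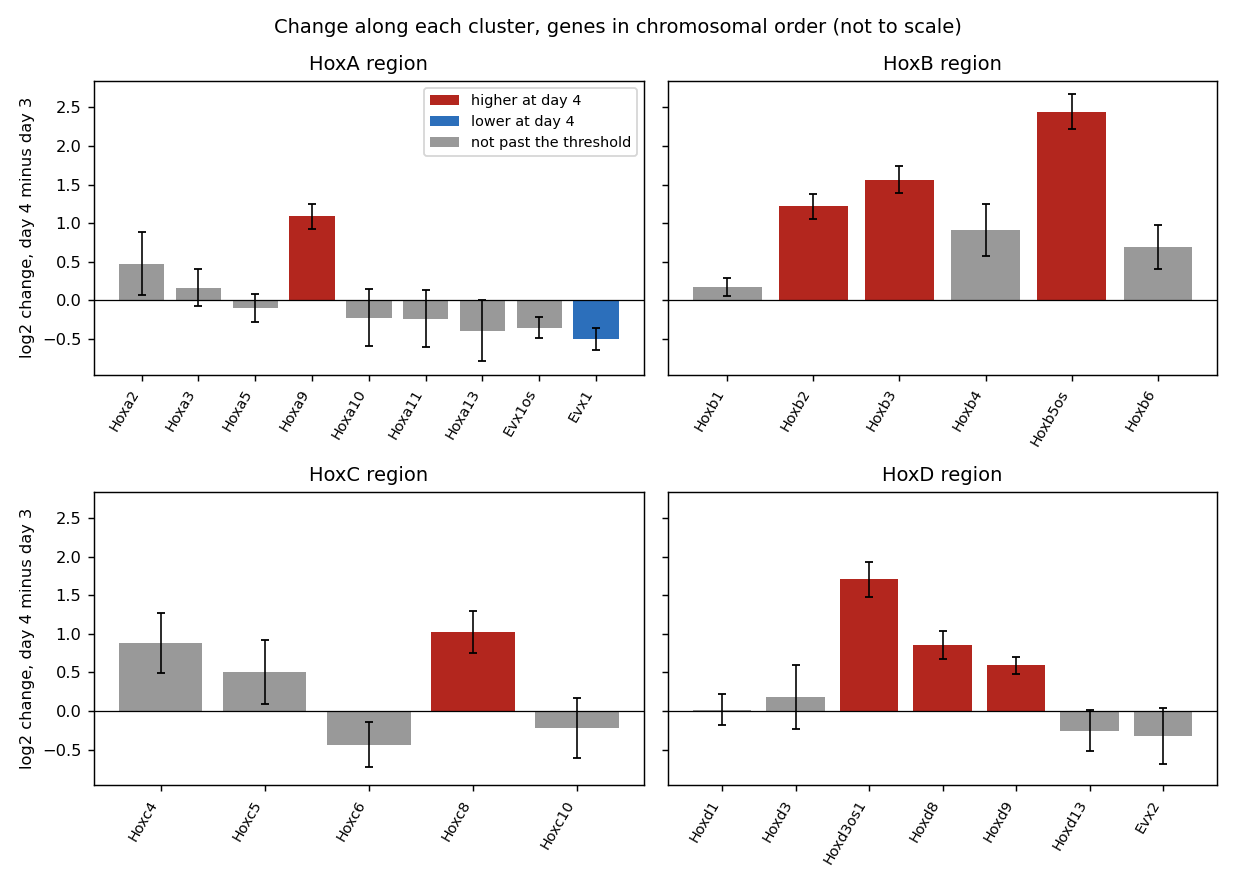
Log2 change, day 4 minus day 3 (bars, with SE), of the brightest probe set of each tested gene, in chromosomal order from the group 1 end, 1 panel per cluster region, not to scale. Red bars passed the test upward and the blue bar downward. In HoxB and HoxD the bars past the test include the noncoding genes Hoxb5os and Hoxd3os1.

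Genes that act with or upstream of Hox genes moved unevenly. Calls here are of the main fit, which called 9.96% of all probe sets higher and 7.78% lower. A separate fit of the brightest probe set of each gene called 11.5% of all genes higher and 10.7% lower. Of 7 tested Hox cofactors of the Meis, Pbx and Pknox families, 2 were higher and 0 lower, with 0 lower also at an unadjusted p under 0.05, and the median change was 0.15. Meis2 averaged 1539 ± 411 at day 4 and 417 ± 156 at day 3 (change 1.93 ± 0.30, limma adjusted p = 0.00311), and Meis1 averaged 52.0 ± 6.399 and 26.4 ± 4.42 (change 0.98 ± 0.22, limma adjusted p = 0.016). Of 7 tested genes of the Cdx, retinoic acid, Wnt and FGF inputs, 1 was higher and 1 lower. Aldh1a2, which makes retinoic acid, averaged 181 ± 22.1 at day 4 and 19.9 ± 5.73 at day 3, and Wnt3a averaged 29.4 ± 5.42 at day 4 and 78.6 ± 8.95 at day 3 (limma adjusted p = 9.02e-05 and 0.002). Cdx2 averaged 260 ± 37.6 at day 4 and 316 ± 27.0 at day 3 and did not pass (limma adjusted p = 0.17). Cdx1 and Cdx4 were under the filter, with Cdx1 signals of 0.73 to 1.66 at day 4 and 10.4 to 26.4 at day 3.

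Among chromatin regulators known to act on Hox clusters, 3 of 16 tested Polycomb genes were higher and 1 lower, and none of 9 tested Trithorax and MLL genes passed. These were calls of the main fit, in which 9.96% of all probe sets were higher, 7.78% lower and 17.7% either. In a separate fit of the brightest probe set of each gene, 11.5% of all genes were called higher, 10.7% lower and 22.2% in either direction. The lists were not compared by a test. Ezh1, a histone methyltransferase of Polycomb complex PRC2, rose by 0.68 ± 0.13, Mtf2, an accessory subunit of that complex, by 0.29 ± 0.07, and Bmi1, of complex PRC1, by 0.52 ± 0.13. Phc1, of PRC1, changed by -0.44 ± 0.13. The limma adjusted p-values were 0.00693, 0.0208, 0.0212 and 0.0417.

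Hox genes are also used by neural tube and lateral plate cells, whose markers were therefore counted. Markers were called by the main fit, which called 9.96% of all probe sets higher and 7.78% lower. A separate fit of the brightest probe set of each gene called 11.5% of all genes higher and 10.7% lower. Of 11 neural and hindbrain markers on the array, 5 were tested and 1 was higher, Irx3 (change 1.45 ± 0.20, limma adjusted p = 0.00178). The median change of the 5 was -0.02. Summed signals were 579 to 819 at day 4 and 337 to 458 at day 3, of which Irx3 averaged 434.8 and 155.3. The defining marker Sox1 was under the filter at 0.95 to 2.65 and 2.21 to 3.83. The defining markers Pax6 (14.8 ± 3.35 at day 4 and 27.4 ± 8.05 at day 3) and Sox3 (27.5 ± 7.93 and 27.7 ± 8.35) did not pass (limma adjusted p = 0.128 and 0.98). Of 9 lateral plate and cardiac markers, 2 were higher (Hand2 and Isl1) and 1 lower (Gata6), with sums of 1474 to 1863 at day 4 and 1218 to 1310 at day 3. The median change of the 9 was 0.74. Gata4 changed by 0.80 ± 0.24 and did not pass (limma adjusted p = 0.0508), while Gata6 changed by -0.97 ± 0.12. Of the defining markers, Hand2 averaged 116 ± 1.77 at day 4 and 25.3 ± 12.2 at day 3. Foxf1 averaged 37.8 ± 3.55 and 22.7 ± 3.39 and did not pass (limma adjusted p = 0.0605). Nor did Hand1, with a change of 0.96 ± 0.58 (limma adjusted p = 0.294). Markers of undifferentiated ES cells had 4 of 9 lower and 1 higher, with sums of 7442 to 7687 at day 4 and 10180 to 10440 at day 3. Of these sums, Tdgf1 averaged 5310 and 6279. Of the defining markers, Nanog (73.6 and 221) and Pou5f1 (165 and 622) were among those lower. Zfp42 (329 and 390) did not pass. Endoderm markers had 2 of 5 tested lower and 0 higher, with sums of 102 to 145 and 158 to 245. Blood and endothelial markers had 1 of 6 tested higher (Kdr) and 2 lower (Etv2 and Lmo2), with sums of 780 to 1026 and 798 to 847. Of 3 intermediate mesoderm markers on the array, 1 was tested, Lhx1, and did not pass. Sums were 1368 to 1621 and 1489 to 1622, of which Lhx1 averaged 1510 and 1527. The defining markers Pax8 and Osr1 were under the filter, and Pax2 had no probe set. Presomitic mesoderm markers had 1 of 7 higher (Rspo3) and 1 lower (Msgn1), a median change of 0.22 and sums of 4555 to 4839 at day 4 and 2929 to 3135 at day 3, of which Rspo3 averaged 2695 and 1275. The part of these cell types in the Hox changes was not tested.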

How the data were processed

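Total RNA of sorted cells was amplified in 2 rounds and hybridised to 1 Affymetrix array per sample, per the labels' protocols. The deposited values are linear signal intensities made with MAS5, per the submitters' processing notes; no source used here gives its version or detection calls. Trimmed means differed by 1.09% between arrays, so the intensities were used as deposited, as log2. Gene symbols came from GEO's platform annotation (34958 with 1 symbol, 932 with several, which were left unnamed, and 9211 not listed).

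Probe sets above the 40th percentile of mean log2 signal, without the 64 controls, were fitted with limma 3.58.1 in R 4.3.3 (day as the only term, eBayes with trend, 2-sided, Benjamini-Hochberg over 27026 probe sets, threshold 0.05). The number of arrays limits the precision. Named in full were called Hox probe sets, those with an unadjusted p under 0.05, other probe sets of called genes and the 6 with the highest signal; other values were chosen after they were seen. The Hox members, the context and marker lists and the motifs were chosen with earlier results of these data known. Alternatives are listed in the closing section. The labels state no pairing by replicate number, so the main fit used none. Same-numbered arrays had correlations of deviations of 0.063, 0.0074 and -0.003, and the others -0.055 to 0.064. These values cannot show whether samples were paired.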

Additional observations from a re-analysis of the deposited data

How the results depend on the processing

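Under 18 alternatives, the count of Hox probe sets higher at day 4 ran from 4 to 9 (7 as reported), and 204 of the 206 values for 12 named probe sets kept their direction. Where 4 were called, without day 3 replicate 3, 4.92% of all probe sets were called higher. With array weights, where 9 were, 15.7% of all were called higher. Both fits tested 29 Hox probe sets, while other alternatives tested other numbers of them or counted genes. The reversed values came from averaging the probe sets of a gene, 0.13 for the dimmer Hoxa9 probe set and -0.056 for Hoxb4. That averaging left 0 HoxA genes higher, and array weights gave 2 in HoxA and 1 Hox probe set lower. No HoxC probe set was higher (0) when the filter was dropped, raised to the 60th percentile or the trend left out; under the stricter filter none of HoxC was tested. The median Hox change was 0.591 with the stricter filter, 0.329 for the brightest probe set of each gene, 0.281 without probe sets suffixed _x_at, _s_at or _a_at and 0.293 with array weights. Leaving out 1 array at a time gave 4 to 8 Hox probe sets higher (4 without day 3 replicate 3), 1 to 2 in HoxA, 2 to 3 in HoxB, 0 to 1 in HoxC, 1 to 3 in HoxD, 0 lower throughout, and a median change of 0.14 to 0.462. Over all probe sets tested, 4795 were called in either direction, and 7758 with array weights. Leaving out an array gave 3098, 2925 and 2279 (day 3 replicates 1, 2 and 3) and 6305, 3061 and 3392 (day 4 replicates 1, 2 and 3). By gene the count was 2729 with the brightest probe set and 1796 with the mean. The cause of these moves was not tested. With the replicate number as a block, 7 Hox probe sets were higher, 1 in HoxA, 2 in HoxB, 1 in HoxC and 3 in HoxD, 0 were lower, and the block changed no Hox call. Offset, quantile and median-centred values gave the same 7 calls. Hox probe sets under the filter, 19 in all, could not be told from background without detection calls.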

Other observations

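Probe sets annotated to a pair of neighbouring Hox genes were left out of the 48, since their signal cannot be assigned to 1 gene. One shared by Hoxd3 and Hoxd4 had 35.1, 30.9 and 23.8 at day 4, against 11.9, 27.6 and 7.65 at day 3, and did not pass (change 1.12 ± 0.46, limma adjusted p = 0.13). A second for the same pair was under the filter. One shared by Hoxb7 and Hoxb8 had 44.2, 15.6 and 21.1 at day 4, against 13.9, 19.2 and 18.1 at day 3 (change 0.53 ± 0.41, limma adjusted p = 0.412), with overlapping days.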
